A study of Mus musculus with 7 samples.

Results

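Interferon-stimulated genes are the genes that cells transcribe after an interferon, a cytokine of antiviral defence, has bound its receptor. A list of 35 mouse genes of this kind, given by symbol, was followed across the plantaris, a calf muscle of the mouse. The genes were chosen with earlier results of these data known. Of these, 33 were measured among 18193 genes, each through its probe set with the highest mean log2(signal + 1) over the 7 arrays and with a single symbol in the platform annotation. The other 2 members, Isg15 and Ifi44, had no such probe set and were not analysed here.

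Type I interferons signal through the receptor chains Ifnar1 and Ifnar2 and the kinases Jak1 and Tyk2. The activated STAT proteins join Irf9 in a complex called ISGF3, which binds an element named ISRE in the promoters of its target genes. Interferon gamma signals through Ifngr1 and Ifngr2 to a STAT dimer that binds another element, GAS. The products of the target genes block viral entry, sense or degrade viral RNA, and feed back on the pathway. In injured or loaded muscle, interferons can reach fibres, satellite cells, fibroblasts, endothelial cells and infiltrating leukocytes alike.

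Total RNA was hybridised to Affymetrix mouse430_2.0 chips, which carry several probe sets for many genes. The arrays formed 4 groups by drug and surgery: tamoxifen with 1 week of overload (n = 3, 2 male and 1 female), vehicle with 1 week of overload (n = 2, 1 male and 1 female), tamoxifen with sham surgery (n = 1, male) and vehicle with sham surgery (n = 1, male). All mice were of the Pax7-DTA genotype, bred from Pax7-CreER and Rosa26-DTA parents, and 4 months old. Overload was induced by synergist ablation, in which neighbouring calf muscles are removed and the plantaris takes on their load. Tamoxifen releases a Cre recombinase driven by Pax7, the transcription factor that marks satellite cells (the muscle stem cells), and the recombinase then turns on the A chain of diphtheria toxin from the Rosa26 locus. Vehicle mice carried the same alleles, so the effect of the drug, of the toxin and of the loss of satellite cells cannot be told apart. The titles read as single mice, while the design text speaks of pooled muscles, so the number of animals behind an array is uncertain and every p-value measures the spread between these arrays.

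The deposited signals had been scaled so that the mean of each array, without its lowest and highest 2% of probe sets, was 500.003, and the array medians ran between 88.2 and 128. Background was set at a signal of 53.6 (log2 5.77), a level that 95% of 77 receptor genes for smell, pheromones and taste do not exceed on average, and 68.8% of genes lay above it. Pax7 had signals of 57.9, 9.97 and 120.4 on the tamoxifen overload arrays and 274 and 349 on the vehicle overload arrays, against 41.2 on the tamoxifen sham array and 92.8 on the vehicle sham array. Below background for Pax7 lay tamoxifen overload replicate 2 and the tamoxifen sham array, and tamoxifen overload replicates 1 and 3 lay above it. All 8 skeletal muscle fibre genes examined were above background on every array.

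The promoters of the members were read from RefSeq (build GRCm38.p6), which gave 28 of the 35 members an entry. No entry was matched for Mx1, Mx2, Oas2, Usp18, Dhx58, Zbp1 and Parp14. In the 300 bases around the start (250 before, 50 after), the ISRE core (GAAA, any 2 bases, then GAAA) was searched on both strands, as were the GAS letters TTCNNNGAA, which read the same on both strands. The ISRE core was present in 15 of 28 members, against 3.99% of 27025 genes and 3.44% of 32851 promoters. GAS was present in 9 of 28 members, against 9.55% of genes and 8.3% of promoters. Both were present in Oas1a, Bst2, Ifitm3 and Igtp. Shown are the 120 bases before the start of 6 members that rose with overload and whose ISRE core lies in that stretch, then of Irf1, which holds GAS and did not pass the test. Capitals mark the ISRE core or its reverse complement, except in Irf1 and in the first capital stretch of Oas1a, where they mark GAS. The positions are, in the same order, chr19:34640769-34640888 (plus strand), chr5:120907526-120907645 (minus strand), chr3:142620543-142620662 (plus strand), chr3:142559924-142560043 (plus strand), chr7:140955962-140956081 (minus strand), chr11:48871421-48871540 (minus strand) and chr11:53769894-53770013 (plus strand).
Ifit1: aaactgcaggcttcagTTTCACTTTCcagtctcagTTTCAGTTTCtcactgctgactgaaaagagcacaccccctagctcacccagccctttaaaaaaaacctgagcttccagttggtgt
Oas1a: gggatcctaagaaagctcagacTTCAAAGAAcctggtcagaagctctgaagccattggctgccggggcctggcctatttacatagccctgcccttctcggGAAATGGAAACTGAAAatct
Gbp2: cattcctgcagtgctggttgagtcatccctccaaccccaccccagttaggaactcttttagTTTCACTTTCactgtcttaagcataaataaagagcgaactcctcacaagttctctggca
Gbp3: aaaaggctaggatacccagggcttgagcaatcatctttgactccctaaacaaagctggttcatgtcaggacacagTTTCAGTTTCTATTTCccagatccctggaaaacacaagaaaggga
Ifitm2: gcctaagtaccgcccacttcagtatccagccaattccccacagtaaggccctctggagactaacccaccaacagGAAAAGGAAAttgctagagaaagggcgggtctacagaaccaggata
Irgm1: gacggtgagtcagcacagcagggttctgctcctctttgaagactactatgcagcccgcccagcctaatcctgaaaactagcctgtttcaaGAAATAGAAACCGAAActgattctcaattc
Irf1: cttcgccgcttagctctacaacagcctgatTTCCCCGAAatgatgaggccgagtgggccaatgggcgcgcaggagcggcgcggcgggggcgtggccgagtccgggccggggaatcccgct

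Ifit1 held the ISRE core at 2 places, 104 to 95 and 85 to 76 bases before the start. In Oas1a, Gbp3 and Irgm1 a pair of overlapping copies lay closer to the start, at 20 to 5, 45 to 30 and 30 to 15 bases before it. Gbp2 had a single copy at 59 to 50 bases and Ifitm2 a single copy at 46 to 37 bases. The GAS letters of Irf1 stood at 90 to 82 bases before the start. Among the 26 measured members with a promoter entry, 8 of the 14 with the ISRE core rose with overload, at a median log2 difference of 1.07. Of the 12 without it, 7 rose, at a median of 0.99. Over all genes tested, 14.7% rose. Igtp, Oas3 and Rsad2, not shown, hold the ISRE core in the same 120 bases and did not pass the test. GAS was held by Irf8, Oas1a, Ifitm3 and Ifi35, which rose, and by Ifit2, Irf1, Bst2, Igtp and Isg20, which did not pass. A match is a description of letters, and no match says only that these letters are not in this window.

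Overload was accompanied by higher levels across most of the set. Averaged over both treatments, 17 of 33 members rose (51.5%) and 0 fell at a Benjamini-Hochberg adjusted p under 0.05 in limma, against 14.7% of all 18193 genes that rose and 8.16% that fell. At an unadjusted p under 0.05, 25 of the 33 differed, all higher, against 34.6% of all genes in either direction. The median log2 difference between overload and sham was 1.06 over the members and 0.07 over all genes, and it was above 0 for 31 members (53.7% of all genes). On 25 members every one of the 5 overload arrays lay above both sham arrays (75.8%, against 23.1% of all genes). In bulk muscle, a change in the number of cells of a type and a change in RNA per cell cannot be told apart. Of the 33 members, 27 were above background on every array, and Oas3 and Mx2 on none. Leaving out a sham array sets both overload groups against the other sham array, which is no longer a comparison within each treatment. The count of 17 fell to 7 without the vehicle sham array and to 7 without vehicle overload replicate 2, and reached 25 without tamoxifen overload replicate 1. It was 11 after quantile normalization and 0 without the intensity trend in limma (16 members at an unadjusted p under 0.05).

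**Figure D1:**
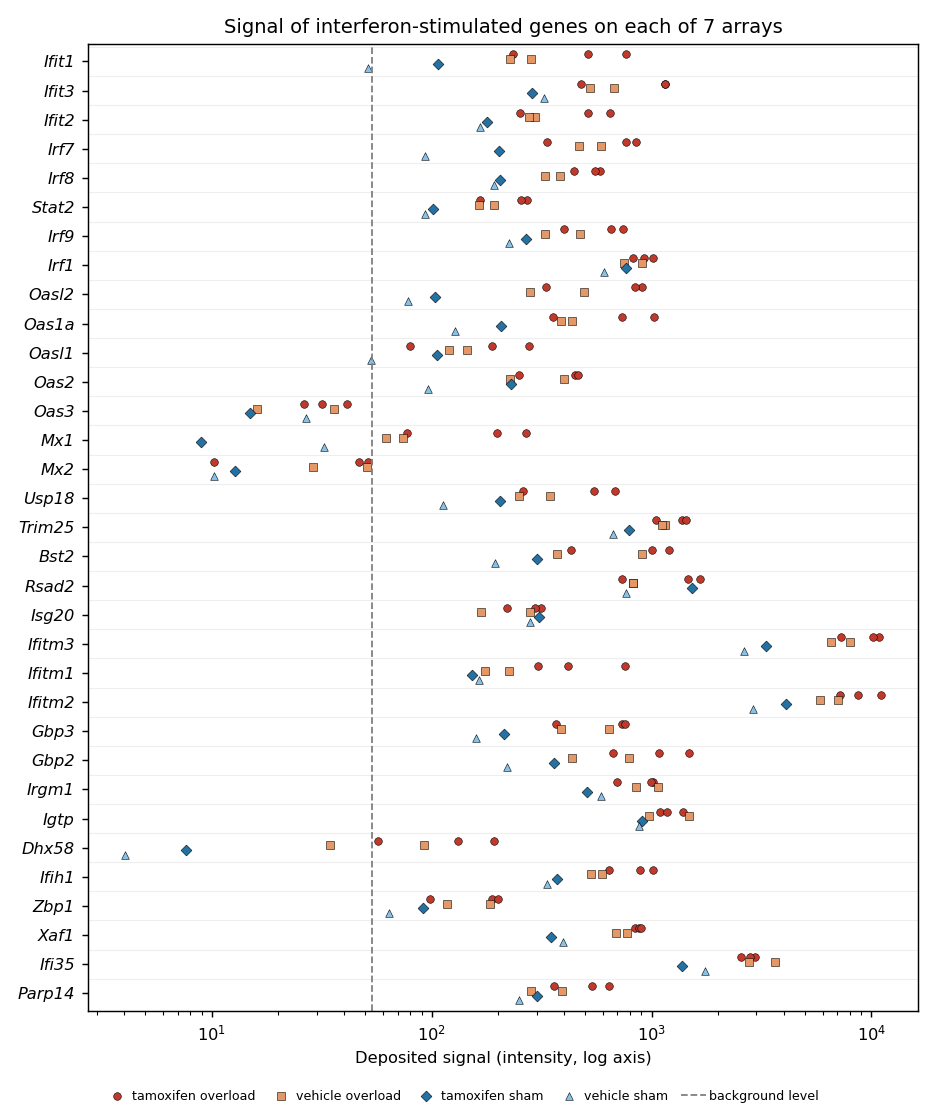
Signal of each of the 33 measured interferon-stimulated genes (rows, grouped by role) on each of the 7 arrays (log axis, deposited intensity), with the tamoxifen overload, vehicle overload, tamoxifen sham and vehicle sham arrays as separate symbols and the background level of 53.6 as a dashed line. For 25 genes all 5 overload points lie to the right of both sham points, and Oas3 and Mx2 lie left of the dashed line throughout.

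Upstream of these genes, no measured interferon passed the test. Of 13 ligands listed, 9 were measured and 1 rose, near the share of all genes (14.7%). It was Il18, a cytokine that drives interferon gamma production, with a log2 difference of 0.99 ± 0.23 (SE, adjusted p = 0.0164). Ifnb1, the type I interferon that most cell types can make, had signals of 50.4, 47.9 and 41.9 on the tamoxifen overload arrays and 40.1 and 70.9 on the vehicle overload arrays, against 38.3 on the tamoxifen sham array and 38.5 on the vehicle sham array. Vehicle overload replicate 2 alone was above background, and the difference did not pass the test (adjusted p = 0.437). Ifng, which encodes interferon gamma, had signals of at most 31.0 on any array, below background throughout. Ifnz, a type I interferon gene of the mouse, had signals of 126, 138 and 63.6 on the tamoxifen overload arrays and 94.6 and 72.5 on the vehicle overload arrays, against 69.2 on the tamoxifen sham array and 48.0 on the vehicle sham array. It was above background on all overload arrays and on the tamoxifen sham array, the groups overlapped, and the log2 difference of 0.85 ± 0.43 (SE, adjusted p = 0.208) did not pass the test. Ifna1, Ifna2 and Ifna4 were each above background on at most 1 array.

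Averaged over both treatments, both chains of the type I interferon receptor rose with overload. Both passed the test within tamoxifen mice, at log2 differences of 1.09 for Ifnar1 and 1.12 for Ifnar2. Neither passed within vehicle mice, at 0.45 for Ifnar1 and 1.13 for Ifnar2. Among 10 measured receptors and transducers 4 rose and 2 fell, against 14.7% and 8.16% of all genes. Ifnar2, a chain of the type I receptor, had signals of 648, 993 and 928 on the tamoxifen overload arrays and 584 and 638 on the vehicle overload arrays, against 381 on the tamoxifen sham array and 272 on the vehicle sham array. Its log2 difference was 1.12 ± 0.22 (SE, adjusted p = 0.00907), and every overload array was above both sham arrays. Ifnar1, the other chain, rose by log2 0.77 ± 0.19 (SE, adjusted p = 0.0228), and Il10rb, which pairs with the interferon lambda receptor, by log2 0.99 ± 0.18 (SE, adjusted p = 0.00679). Its partner chain Ifnlr1 had signals of at most 21.2, below background on every array. The fourth to rise was Stat3, by log2 0.69 ± 0.13 (SE, adjusted p = 0.00843). Jak2, a kinase of the interferon gamma receptor, fell by 0.98 on the log2 scale (adjusted p = 0.00448), with signals of 695, 882 and 820.0 on the tamoxifen overload arrays and 702 and 666 on the vehicle overload arrays, against 1208 on the tamoxifen sham array and 1682 on the vehicle sham array. Ifngr2, a chain of that receptor, fell by 0.51 on the log2 scale (adjusted p = 0.0454). Ifngr1, its partner, had a log2 difference of 0.60 ± 0.20 (SE, adjusted p = 0.0624), and did not pass the test.

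Of the 5 transcription factors among the members, Irf7 and Irf8 rose. Irf7, which amplifies the type I interferon response, had signals of 336, 768 and 854 on the tamoxifen overload arrays and 591 and 466 on the vehicle overload arrays, against 203 on the tamoxifen sham array and 93.5 on the vehicle sham array. All overload arrays lay above both sham arrays, and the tamoxifen sham array lay above the vehicle sham array. The log2 difference between overload and sham was 1.79 ± 0.34 (SE, adjusted p = 0.00793). Irf8, a factor of macrophage and dendritic cell development, had signals of 444, 586 and 552 on the tamoxifen overload arrays and 328 and 383 on the vehicle overload arrays, against 205 on the tamoxifen sham array and 193 on the vehicle sham array. Here the groups separated fully, with tamoxifen overload highest, then vehicle overload, then both sham arrays close together; the log2 difference was 1.13 ± 0.22 (SE, adjusted p = 0.00825). Irf9, Stat2 and Irf1, the remaining factors, had log2 differences of 0.80, 0.93 and 0.39 that did not pass the test (adjusted p = 0.0739, 0.0632 and 0.143). Stat2 had a second probe set, at a lower level and below background on the vehicle sham array, that rose by log2 1.72 (adjusted p = 0.0111 over all single-symbol probe sets).

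Usp18 and Trim25 stand for the Isg15 system, in which a ubiquitin-like protein is attached to other proteins. Usp18, the protease that removes Isg15 and restrains the type I receptor, had signals of 261, 681 and 548 on the tamoxifen overload arrays and 345 and 249.9 on the vehicle overload arrays, against 205 on the tamoxifen sham array and 112 on the vehicle sham array. The overload arrays lay above both sham arrays, tamoxifen overload replicate 1 lay between the vehicle overload arrays, and the log2 difference of 1.10 ± 0.38 (SE, adjusted p = 0.0738) did not pass the test. Trim25, a ligase that acts on the RNA sensor RIG-I, had signals of 1045, 1372 and 1441 on the tamoxifen overload arrays and 1152 and 1115 on the vehicle overload arrays, against 790.4 on the tamoxifen sham array and 666 on the vehicle sham array. It rose by log2 0.66 ± 0.17 (SE, adjusted p = 0.0271), and the call was lost in 6 of 17 alternative settings.

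The tetratricopeptide genes Ifit1, Ifit2 and Ifit3 lie next to each other on chromosome 19 and encode proteins that bind viral RNA or partner with those that do. Ifit1 had signals of 234, 768 and 513 on the tamoxifen overload arrays and 282 and 228 on the vehicle overload arrays, against 107 on the tamoxifen sham array and 51.5 on the vehicle sham array. Its level on the vehicle sham array was below background, and the tamoxifen overload arrays differed up to 3.28-fold among themselves. Ifit1 rose by log2 2.05 ± 0.45 (SE, adjusted p = 0.0150). Ifit3 had signals of 476, 1157 and 1147 on the tamoxifen overload arrays and 527 and 673 on the vehicle overload arrays, against 287 on the tamoxifen sham array and 326 on the vehicle sham array. All of its overload arrays lay above both sham arrays, and the log2 difference of 1.14 ± 0.38 (SE, adjusted p = 0.0657) did not pass the test. Ifit2 had a log2 difference of 0.94 ± 0.37 (SE, adjusted p = 0.115), which also did not pass.

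Oligoadenylate synthetases make the messenger that activates the antiviral nuclease RNase L, and their genes lie in 2 clusters on chromosome 5, Oas1a with Oas2 and Oas3, and Oasl1 with Oasl2. Oasl2, an OAS-like protein, rose 4.37-fold, with signals of 329.7, 903 and 845 on the tamoxifen overload arrays and 491 and 282 on the vehicle overload arrays, against 103 on the tamoxifen sham array and 77.9 on the vehicle sham array. Its log2 difference was 2.13 ± 0.39 (SE, adjusted p = 0.00696), and its call was lost in 1 alternative alone, the fit without the intensity trend. Oas1a had signals of 357, 1028 and 732 on the tamoxifen overload arrays and 437 and 386 on the vehicle overload arrays, against 207 on the tamoxifen sham array and 128 on the vehicle sham array, with all overload arrays above both sham arrays, and rose by log2 1.56 ± 0.40 (SE, adjusted p = 0.0262). Oas2 had signals of 250.4, 449 and 463 on the tamoxifen overload arrays and 401 and 227 on the vehicle overload arrays, against 231 on the tamoxifen sham array and 96.1 on the vehicle sham array. Its tamoxifen sham array lay above vehicle overload replicate 2, so the groups overlapped, and the log2 difference of 0.91 ± 0.29 (SE, adjusted p = 0.0579) did not pass the test. Oasl1 did not pass either (log2 difference 0.92 ± 0.52, adjusted p = 0.259). Oas3 had signals of at most 41.3, below background on every array, and has no fold change.

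Mx1, a dynamin-like GTPase that blocks influenza viruses and is defective in many laboratory mouse strains, had signals of 77.6, 269.6 and 198 on the tamoxifen overload arrays and 74.2 and 61.8 on the vehicle overload arrays, against 8.98 on the tamoxifen sham array and 32.3 on the vehicle sham array. Both sham arrays were below background and all overload arrays above it. Overload was at least 1.93-fold higher than sham against the background level (adjusted p = 0.0200). Its neighbour on chromosome 16, Mx2, was below background on every array, with signals of at most 51.5.

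Of the remaining antiviral effectors, none of 3 passed the test, and 2 had the only negative differences of the set. Rsad2, which encodes viperin, an enzyme that makes a chain-terminating nucleotide, had signals of 732, 1460.4 and 1665 on the tamoxifen overload arrays and 826 and 824 on the vehicle overload arrays, against 1526 on the tamoxifen sham array and 767 on the vehicle sham array. The tamoxifen sham array lay between the higher overload arrays, the vehicle sham array lay among the lower ones, and the log2 difference was -0.28 ± 0.29 (SE, adjusted p = 0.565). On its other probe sets the tamoxifen sham array likewise lay among the overload arrays. Isg20, an RNA exonuclease, had signals of 221, 313 and 294 on the tamoxifen overload arrays and 281 and 167 on the vehicle overload arrays, against 307 on the tamoxifen sham array and 281 on the vehicle sham array. Its groups overlapped too, with a log2 difference of -0.44 ± 0.26 (SE, adjusted p = 0.277). Bst2, or tetherin, which holds budding virus on the cell surface, had signals of 431, 1009.8 and 1205 on the tamoxifen overload arrays and 901 and 371 on the vehicle overload arrays, against 302 on the tamoxifen sham array and 194 on the vehicle sham array. It was higher on every overload array, with a wide spread within both overload groups, and its log2 difference of 1.06 ± 0.34 (SE, adjusted p = 0.0563) did not pass the test.

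All 3 interferon-induced transmembrane genes, neighbours on chromosome 7 whose products hinder viral entry, rose. Ifitm3 had signals of 7295, 10851 and 10112 on the tamoxifen overload arrays and 8019.8 and 6548 on the vehicle overload arrays, against 3323 on the tamoxifen sham array and 2645 on the vehicle sham array. The lowest overload array was well above the higher sham array, and the rise was log2 1.37 ± 0.19 (SE, adjusted p = 0.00197). Ifitm2 had signals of 7223, 11014 and 8692 on the tamoxifen overload arrays and 7064 and 5805 on the vehicle overload arrays, against 4082 on the tamoxifen sham array and 2890.0 on the vehicle sham array, and rose by log2 1.09 ± 0.20 (SE, adjusted p = 0.00700). Ifitm1 had signals of 418, 760.5 and 304 on the tamoxifen overload arrays and 174 and 224 on the vehicle overload arrays, against 153 on the tamoxifen sham array and 164 on the vehicle sham array. Its vehicle overload arrays lay just above both sham arrays while its tamoxifen overload arrays lay well above them, and the rise was log2 1.20 ± 0.30 (SE, adjusted p = 0.0252), a call lost in 6 of 17 alternatives.

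Of 4 GTPases induced above all by interferon gamma, 3 rose. They act on the vacuoles of intracellular microbes, and Gbp2 and Gbp3 are neighbours on chromosome 3. Gbp3 had signals of 369.6, 731 and 759 on the tamoxifen overload arrays and 642 and 387 on the vehicle overload arrays, against 214 on the tamoxifen sham array and 160.0 on the vehicle sham array, and rose by log2 1.28 ± 0.29 (SE, adjusted p = 0.0161). Gbp2 had signals of 671, 1078 and 1483 on the tamoxifen overload arrays and 793 and 434 on the vehicle overload arrays, against 361 on the tamoxifen sham array and 219.9 on the vehicle sham array, and rose by log2 1.11 ± 0.22 (SE, adjusted p = 0.00986). In both genes replicate 1 of tamoxifen overload and replicate 2 of vehicle overload were the lowest of the overload arrays. Irgm1 rose by log2 0.75 ± 0.22 (SE, adjusted p = 0.0421), a call lost in 9 of 17 alternatives, and Igtp did not pass the test (log2 difference 0.47 ± 0.21, adjusted p = 0.153).

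Both cytosolic RNA sensors, of 3 nucleic acid sensors in the set, rose. Ifih1, which encodes the sensor MDA5, had signals of 639, 1017 and 889.5 on the tamoxifen overload arrays and 595 and 533 on the vehicle overload arrays, against 371 on the tamoxifen sham array and 336 on the vehicle sham array, and rose by log2 0.89 ± 0.22 (SE, adjusted p = 0.0230). Dhx58, which encodes LGP2, a regulator of MDA5 and RIG-I, had signals of 57.0, 192 and 132 on the tamoxifen overload arrays and 92.4 and 34.6 on the vehicle overload arrays, against 7.64 on the tamoxifen sham array and 4.05 on the vehicle sham array. Both sham arrays and vehicle overload replicate 2 were below background. Overload was at least 1.49-fold higher than sham (adjusted p = 0.00904), but its other 2 probe sets did not pass the test. Zbp1, a sensor of left-handed nucleic acid, did not pass (log2 difference 0.72 ± 0.36, adjusted p = 0.205), whereas its second, dimmer probe set, below background on both sham arrays, was at least 1.76-fold higher after overload (adjusted p = 0.0124).

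Among the rest, Ifi35 and Xaf1 rose and Parp14 did not pass. Ifi35, which encodes an interferon-induced leucine zipper protein, had signals of 2962, 2814 and 2555 on the tamoxifen overload arrays and 2761 and 3644 on the vehicle overload arrays, against 1373 on the tamoxifen sham array and 1754 on the vehicle sham array. The lowest overload array was well above the higher sham array, the rise was log2 1.05 ± 0.13 (SE, adjusted p = 0.00150), and both other probe sets rose too (log2 differences of 1.68 and 0.72). Xaf1, a partner of the apoptosis inhibitor XIAP, had signals of 843, 878 and 897 on the tamoxifen overload arrays and 689 and 776 on the vehicle overload arrays, against 348 on the tamoxifen sham array and 396 on the vehicle sham array, and rose by log2 1.12 ± 0.16 (SE, adjusted p = 0.00229). Its second probe set did not pass the test, with a log2 difference of -0.20 (adjusted p = 0.931). Parp14, an ADP-ribosyltransferase, had a log2 difference of 0.45 ± 0.27 (SE, adjusted p = 0.287), and did not pass the test. Its second probe set, below background on both sham arrays, was at least 1.69-fold higher (adjusted p = 0.0294). The 10 members with several probe sets had 14 others in all, of which 11 were higher after overload and 8 passed the test. Probe sets of Gbp2, Ifi35 and Trim25 are of kinds that can match more than 1 transcript, so a share of their signal may belong to related sequences.

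Other genes of the pathway were counted in the same comparison. Of 18 measured sensors and adaptors 8 rose and 0 fell. Sting1, the adaptor of cytosolic DNA sensing, rose by log2 1.64 ± 0.21 (SE, adjusted p = 0.00145). Tlr7, an endosomal receptor for RNA, was below background on both sham arrays and at least 3.37-fold higher after overload (adjusted p = 0.00704). Ikbke, a kinase that activates interferon regulatory factors, rose by log2 1.29 ± 0.33 (SE, adjusted p = 0.0261) with its tamoxifen sham array below background, and Ifi204, a DNA sensor, by log2 1.47 ± 0.43 (SE, adjusted p = 0.0447). Of 13 measured inhibitors 3 rose and 1 fell, shares near those of all genes (14.7% and 8.16%). Socs3, which blocks cytokine receptor kinases, had signals of 1206, 1941 and 1891 on the tamoxifen overload arrays and 1592 and 729 on the vehicle overload arrays, against 296 on the tamoxifen sham array and 261 on the vehicle sham array, and rose by log2 1.98 ± 0.26 (SE, adjusted p = 0.00161). Samhd1, which depletes nucleotides, rose by log2 0.75 ± 0.16 (SE, adjusted p = 0.0138), Adar, which edits double-stranded RNA, by log2 0.74 ± 0.22 (SE, adjusted p = 0.0471), and the phosphatase gene Ptpn11 fell by 0.52 on the log2 scale (adjusted p = 0.0364).

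A further list of 45 genes, taken here as interferon-induced, was likewise chosen with earlier results of these data known. Whether interferon induces each of them, Ifitm10 included, was not tested. Of its genes 39 were measured, and 24 rose and 1 fell (14.7% and 8.16% of all genes), at a median log2 difference of 0.95. Ccl5, a chemokine for T cells and monocytes, was below background on both sham arrays and at least 3.33-fold higher after overload (adjusted p = 0.00124). Cxcl10, another such chemokine, had signals of 131, 326 and 302 on the tamoxifen overload arrays and 129.9 and 147 on the vehicle overload arrays, against 8.97 on the tamoxifen sham array and 63.8 on the vehicle sham array, and rose by log2 2.73 ± 0.45 (SE, adjusted p = 0.00464). Mlkl, the effector of necroptosis, rose by log2 2.21 ± 0.30 (SE, adjusted p = 0.00196), and Ifitm10 by log2 1.79 ± 0.39 (SE, adjusted p = 0.0146). The tamoxifen sham array was below background for Cxcl10, Mlkl and Ifitm10, so these sizes are not exact. Within vehicle mice the log2 difference was 0.98 for Cxcl10 and 1.27 for Mlkl, and neither passed the test. For Ifitm10 the vehicle sham array lay among the overload arrays, and the log2 difference within vehicle mice was 0.49 (adjusted p = 0.663). Within tamoxifen mice, overload was at least 4.31-fold higher than sham for Cxcl10, 5.16-fold for Mlkl and 1.55-fold for Ifitm10 (adjusted p = 0.00330, 0.00281 and 0.00734). Cxcl11, the gene that fell, had a log2 difference of -1.58 ± 0.38 (SE, adjusted p = 0.0209).

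Markers of macrophages moved with the set. Of 14 measured macrophage and monocyte markers 13 rose, and 11 were above background on every array. Their summed signal was 32276, 45098 and 43041 on the tamoxifen overload arrays and 29283 and 28241 on the vehicle overload arrays, against 11353 on the tamoxifen sham array and 6473 on the vehicle sham array. The summed signal of the 33 members was 29682, 46150 and 42031 on the tamoxifen overload arrays and 31760 and 28650 on the vehicle overload arrays, against 17972 on the tamoxifen sham array and 14548.0 on the vehicle sham array. Tamoxifen overload replicate 1 was the lowest array of its group in both sums. The sums are on the linear scale, so a few bright genes make up much of them, Ifitm2 and Ifitm3 among the members and Lyz2 and Csf1r among the markers. Replicate 1 was also lowest by the median log2 level, with 8.53, 9.59 and 9.52 for the members. For the markers the medians were 10.27, 10.85 and 10.78 on the same arrays. All 3 pan-leukocyte markers and 5 of 6 fibroblast markers rose as well. None of 9 T and natural killer cell markers and none of 3 B cell markers passed the test, and 1 of the 9 and 0 of the 3 were above background on every array. Of the T cell markers, Cd3e was at most 18.5 on any array. The plasmacytoid dendritic cell list had 3 of 7 markers that rose, Irf8, Ccr9 and Pacsin1. It shares Irf8 and Bst2 with the set, Bst2 did not pass, and its marker Siglech ran between 32.1 and 65.2. Siglech was above background on the tamoxifen sham array alone. Ccr9 was above background on tamoxifen overload replicates 1 and 2 alone (72.5 and 87.9). For Pacsin1 the vehicle sham array (89.4) lay among the overload arrays, and the tamoxifen sham array (8.3) was below background. Conventional dendritic cell markers rose in 1 of 5, neutrophil markers in 2 of 4 and satellite cell markers in 1 of 5. Of 6 endothelial markers 1 rose and 1 fell. Over all genes 14.7% rose and 8.16% fell, and the counts of 1 in these lists are near those shares. The 8 muscle fibre genes had a median log2 difference of -0.32, and none passed. The part of these cells in the result was not tested.

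**Figure D2:**
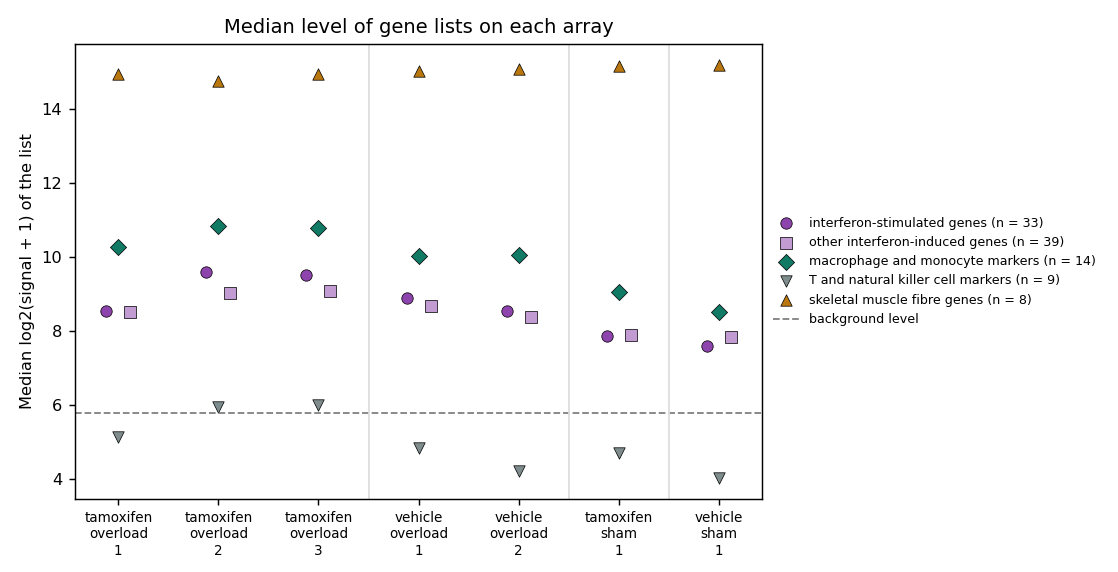
Median log2(signal + 1) of 5 gene lists (symbols) on each of the 7 arrays (horizontal axis, from tamoxifen overload to vehicle sham), with the background level as a dashed line. The 33 interferon-stimulated genes (median 8.53, 9.59 and 9.52 on tamoxifen overload arrays, 8.89 and 8.54 on vehicle overload arrays, 7.86 on tamoxifen sham and 7.60 on vehicle sham) and the macrophage and monocyte markers are both lowest on the sham arrays, while the muscle fibre genes differ little between arrays.

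Within each drug treatment fewer members passed the test than over both. In tamoxifen mice 11 of 33 members passed the test, all higher (33.3%, against 9.98% of all genes that rose): Irf8, Oasl2, Mx1, Ifitm1, Ifitm2, Ifitm3, Gbp2, Ifih1, Dhx58, Xaf1 and Ifi35. None fell (4.9% of all genes did), 22 had an unadjusted p under 0.05 (29.8% of all genes), and the difference was above 0 for 31 members (52.3% of all genes). In vehicle mice 4 of 33 passed, all higher (12.1%, against 6.35% of all genes that rose): Irf7, Ifitm3, Xaf1 and Ifi35. Again none fell (2.44% of all genes did), 14 had an unadjusted p under 0.05 (24.0% of all genes), and the difference was above 0 for 30 members (54.7% of all genes). The median log2 difference was 1.10 in tamoxifen mice and 0.89 in vehicle mice (over all genes, 0.04 in tamoxifen mice and 0.09 in vehicle mice). Each comparison rests on 1 sham array, whose spread was taken to be that of the other arrays. With either female array dropped, the sex term fits the other one exactly, so both of those fits rest on the male arrays alone. The tamoxifen count became 23 without tamoxifen overload replicate 1. The vehicle count became 16 without that array and 7 when tamoxifen overload replicate 2 was dropped. It was 2 with either female array dropped, that is vehicle overload replicate 1 or replicate 3 of tamoxifen overload. It was 0 when vehicle overload replicate 2 was dropped (limma, 9 at an unadjusted p under 0.05).

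**Figure D3:**
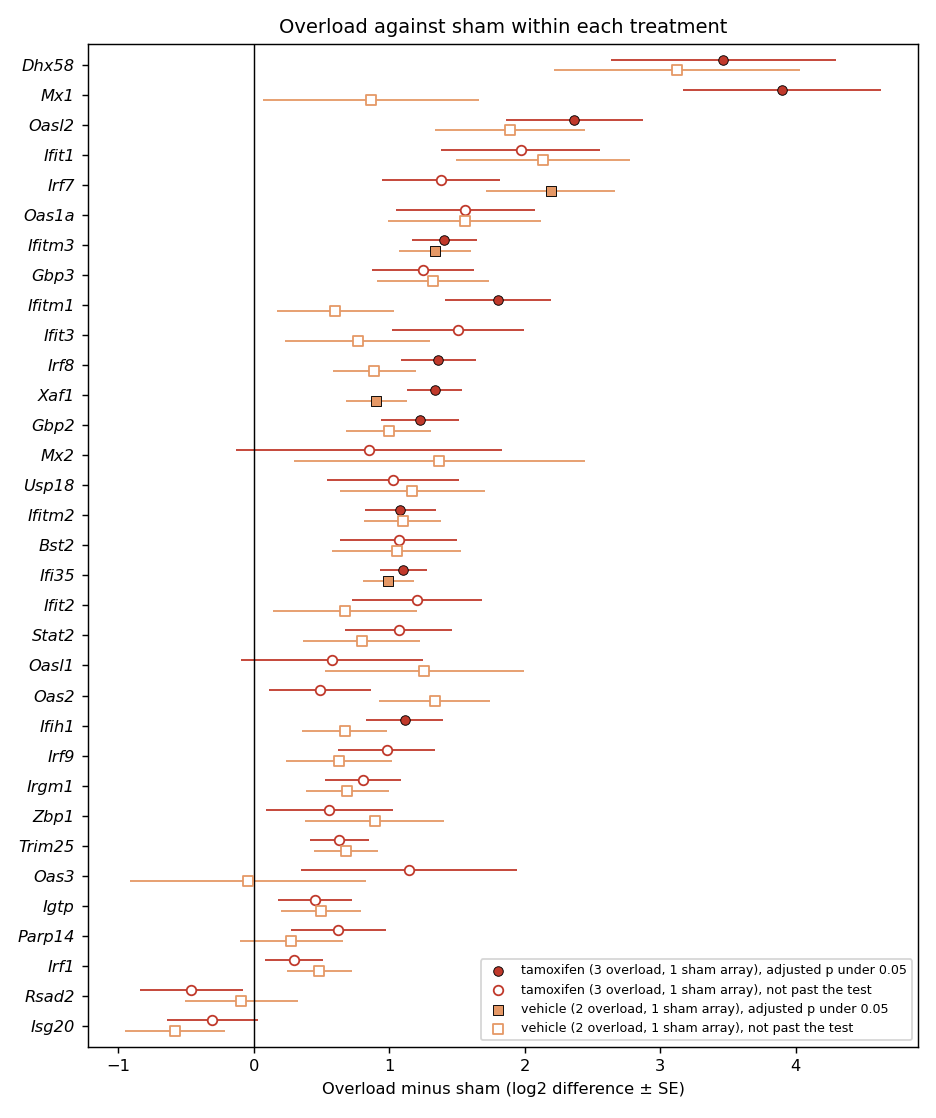
Log2 difference between overload and sham (horizontal axis, ± SE of limma) for each member, in tamoxifen mice (circles) and in vehicle mice (squares), with filled symbols past an adjusted p of 0.05. Filled symbols number 11 for tamoxifen and 4 for vehicle, and nearly all points lie right of 0, apart from Rsad2 and Isg20 in both treatments and Oas3 in vehicle.

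The size of the overload effect did not pass a test of its difference between treatments for any member. The interaction, the overload effect in tamoxifen mice minus that in vehicle mice, had 0 of 33 members past the adjusted threshold in limma (0.0% of all genes) and 1 at an unadjusted p under 0.05 (5.61% of all genes). That member was Mx1. Against the background level, overload was at least 2.96-fold higher than sham for Mx1 in tamoxifen mice (adjusted p = 0.0119) and at least 1.26-fold higher in vehicle mice (adjusted p = 0.583), with an adjusted p of 0.782 for the interaction. The median interaction was 0.11 over the members and -0.02 over all genes, and it was above 0 for 20 members (47.7% of all genes).

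Tamoxifen overload was set against vehicle overload to ask whether the members differ between the drug treatments after overload. Pax7 was lower on every tamoxifen overload array than on the vehicle overload arrays (274 and 349). On the female tamoxifen overload array it was 120.4, above the 92.8 of the vehicle sham array. The part of satellite cell loss in any difference was not tested, because it cannot be told apart from that of the drug and the toxin. With limma 0 of 33 members passed the adjusted threshold, as did 0.0% of all genes in either direction, and 5 members (15.2%) had an unadjusted p under 0.05, against 10.6% of all genes. These 5 were Irf8, Ifitm1, Ifitm2, Gbp2 and Ifih1. The median log2 difference was 0.48 over the members and 0.03 over all genes, and it was above 0 for 30 members (52.8% of all genes). After each array was centred on its median, Irf1 and Igtp turned below 0, and after quantile normalization Igtp did. Every tamoxifen overload array was above every vehicle overload array for 6 members (18.2%, against 16.9% of all genes): Irf8, Mx1, Ifitm1, Ifitm2, Ifih1 and Xaf1. The largest log2 differences were those of Mx1 (1.29 ± 0.57, unadjusted p = 0.0516, adjusted p = 0.471), Dhx58 (1.11 ± 0.64, unadjusted p = 0.122, adjusted p = 0.551) and Ifitm1 (1.10 ± 0.30, unadjusted p = 0.00674, adjusted p = 0.391). For Dhx58, vehicle overload replicate 2 was below background. Gbp2 followed (0.94 ± 0.22, unadjusted p = 0.00287, adjusted p = 0.378).

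Much of the spread lay within the tamoxifen overload group. Replicate 1 was its lowest array for 30 of 33 members (90.9%, against 36.8% of all genes), the exceptions being Oas3, Ifitm1 and Ifi35. Replicate 2 was at least 1.5-fold above replicate 1 for 23 members (69.7%, against 17.2% of all genes), and replicate 3 for 19 (57.6%, against 12.5%). The median log2 difference from replicate 1 was 0.86 for replicate 2 and 0.88 for replicate 3, against 0.04 and 0.00 over all genes. Ifit1 was 3.28-fold higher on replicate 2 than on replicate 1, and Irf7 was 2.29-fold higher. Replicates 1 and 2 are both male, so sex does not separate them. For the 39 other interferon-induced genes the same median differences were 0.59 and 0.61, with replicate 1 lowest for 36. For the 14 macrophage markers they were 0.50 and 0.60, with replicate 1 lowest for 12. The 3 pan-leukocyte markers had 0.82 and 0.44, with replicate 1 lowest for 3. The 6 fibroblast markers had -0.17 and -0.06 and the 4 neutrophil markers 0.38 and -0.93, with replicate 1 lowest for 0 in either list. The part of these markers in the spread was not tested.

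Without replicate 1 the comparison of tamoxifen with vehicle gave 5 members past the adjusted threshold, all higher, against 1.25% of all genes in either direction. In each of the other 6 fits that left out an array, 0 members passed. Since replicate 1 was the lowest of its group for most members, leaving it out raises the tamoxifen mean by construction. The 5 were Ifit3 (log2 0.95, adjusted p = 0.0404), Oas1a (log2 1.08, adjusted p = 0.0484), Oasl2 (log2 1.23, adjusted p = 0.0448), Rsad2 (log2 0.92, adjusted p = 0.0243) and Gbp2 (log2 1.11, adjusted p = 0.0232).

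**Figure D4:**
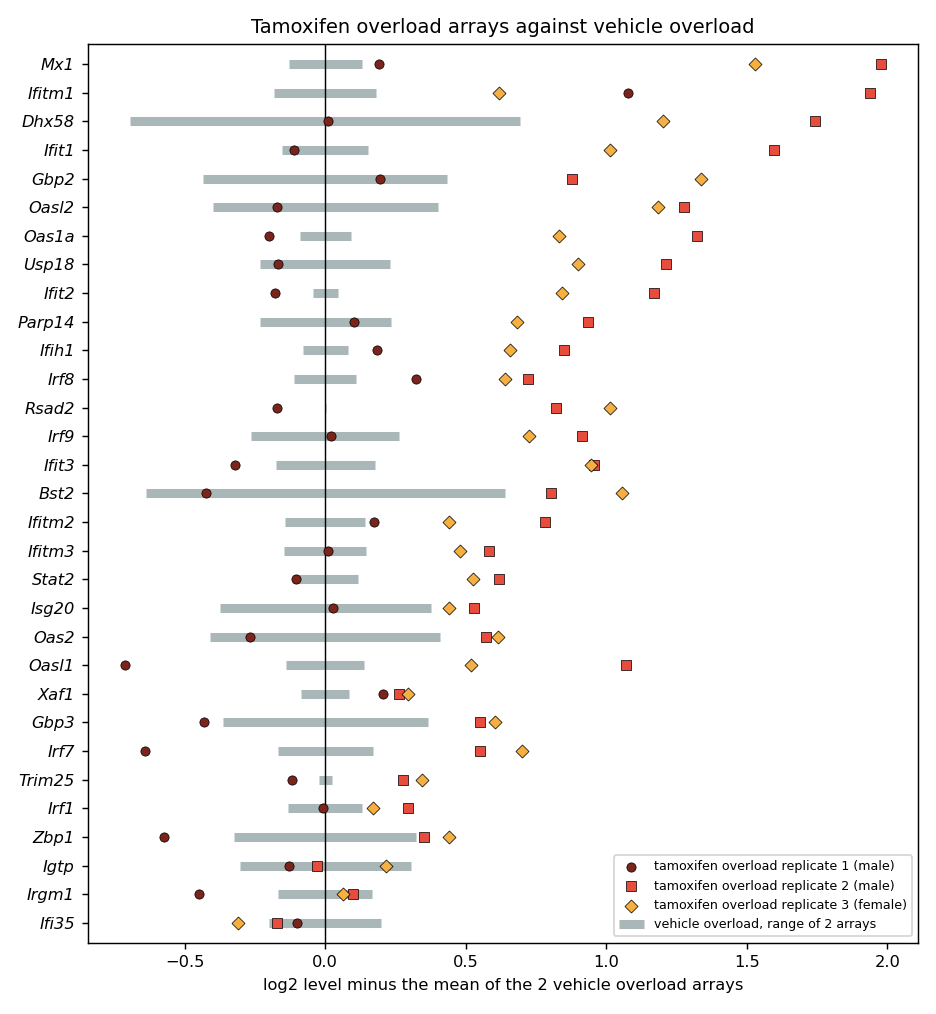
Log2 level of each member above background (rows) on the 3 tamoxifen overload arrays (points), minus the mean of the 2 vehicle overload arrays, whose range is the grey bar. Replicate 1 is the leftmost point for 29 of the 31 genes drawn, all but Ifitm1 and Ifi35.

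The vehicle overload arrays were set against each other in the same way. Replicate 1 (female) was above replicate 2 (male) for 23 members (69.7%, against 47.3% of all genes) and at least 1.5-fold above it for 9 (27.3%, against 14.6%), at a median log2 difference of 0.26. In the sex term of the fit, female minus male, 0 of 33 members passed the adjusted threshold in limma (0.033% of all genes were higher and 0.0165% lower). At an unadjusted p under 0.05 stood 2 members (5.01% of all genes), Bst2 (log2 difference 1.04, adjusted p = 0.941) and Gbp2 (0.83, adjusted p = 0.812). The female minus male difference was above 0 for 25 members (47.4% of all genes). Female arrays came from overloaded muscle alone.

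The sham arrays, 1 a group, were compared by their values alone, and no test was run between them. The tamoxifen sham array was above the vehicle sham array for 26 of 33 members (78.8%, against 52.9% of all genes) and at least 1.5-fold above it for 10 (30.3%, against 18.4%). The 10 were Ifit1, Irf7, Oas1a, Oas2, Oasl1, Usp18, Rsad2, Bst2, Gbp2 and Dhx58. Oas2 had a signal of 231 on the tamoxifen sham array and 96.1 on the vehicle sham array, a ratio of 2.39. Rsad2 had 1526 on the tamoxifen sham array and 767 on the vehicle sham array, a ratio of 1.99. Mx1 ran the other way, with 8.98 on the tamoxifen sham array and 32.3 on the vehicle sham array, both below background. The median log2 difference was 0.29 over the members and 0.03 over all genes. For the 14 macrophage markers it was 0.61, with 13 higher on the tamoxifen sham array. The 3 pan-leukocyte markers had a median of 1.10, with 3 higher, and the 6 fibroblast markers 0.37, with 6 higher. Among the 8 muscle fibre genes it was -0.07, with 1 higher.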

How the data were processed

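Total RNA (1 µg) of plantaris was measured on 7 Affymetrix mouse430_2.0 chips, per the labels. The authors deposited 1 intensity per probe set on a linear scale, and the submitters' processing notes name Partek, without a version. The sources used here do not say how probes were combined into a probe set value. Because each array was scaled as a whole, a change in total RNA per muscle cannot be seen.

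The intensities were taken as log2(signal + 1). Of 45101 probe sets, 34945 had a single symbol, 932 several, 9160 none and 64 were controls. Symbols were checked through the Entrez identifier (34741 matched, 0 changed), and the probe set with the highest mean stood for each of 18193 genes. limma 3.58.1 in R 4.3.3 fitted a term for each group and for sex, with variances moderated along an intensity trend (2 residual and 5.95 prior degrees of freedom). Each sham array, being alone in its group, took its spread from the overload arrays. Tests were two-sided, with Benjamini-Hochberg adjustment over all 18193 genes and a threshold of 0.05. Where a group lay below the background level on every array, a fold is a bound against that level. The fit was also run on simulated data with independent noise and the same spread on sham and overload arrays. Those runs cannot show whether the single sham arrays share the overload spread, and no result rests on them.

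The members and lists were chosen with earlier results of these data known. Signals were printed for the 2 members per role with the largest overload difference, those with a negative one, those called in another comparison, and the 3 with the largest difference between treatments in overload and in sham; Ifitm2, Pax7 and pathway genes were added. Of each pathway list up to 4 called genes were named, beside the receptor chains, Ifnb1 and Ifng. Stat3, Ifnz, Ifna1, Ifna2, Ifna4, Ifnlr1, Cxcl11, Lyz2, Csf1r, Cd3e, Siglech, Ccr9 and Pacsin1 were chosen after their values were seen. Alternatives changed the sex term, scaling, pseudocount, filter, probe set rule, trend and arrays included.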

Additional observations from a re-analysis of the deposited data

How the results depend on the processing

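Limits: each sham group holds 1 array, residual degrees of freedom are 2, and signals near the background level of 53.6 carry little information. Leaving out a female array lets the sex term fit the other one exactly, so such a fit rests on the male arrays alone. When a sham array is left out, both overload groups are set against the other sham array. No paired analysis was possible because only the titles of the 2 male tamoxifen overload arrays carry a number. The other replicate numbers were given here.

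The count of members that rose with overload over both treatments (17) was 11 after quantile normalization and 0 without the intensity trend (limma, 16 at an unadjusted p under 0.05), and 7 to 25 when single arrays were left out: 7 without the vehicle sham array, 7 when vehicle overload replicate 2 was dropped, and 25 when replicate 1 of tamoxifen overload was. It was 14 to 22 under the other alternatives. The vehicle count (4) was 8 without the sex term, 2 in male arrays alone, 2 after quantile normalization, 1 after centring each array on its median, 2 with a pseudocount of 16 and 0 without the trend, and 0 to 16 when single arrays were left out (0 for replicate 2 of vehicle overload, 16 for replicate 1 of tamoxifen overload). The tamoxifen count (11) was 0 without the trend, and 8 to 23 when single arrays were left out (23 without tamoxifen overload replicate 1). The count for tamoxifen against vehicle in overload (0) was 0 to 5 when single arrays were left out, with 5 without tamoxifen overload replicate 1. The interaction and sex counts were 0 under every alternative run. The cause of these changes was not tested.

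The members' median for overload against sham ran between 0.75 and 1.25 under all alternatives. Quantile normalization moved the median of all genes for that comparison by -0.13, and centring by -0.29. Testing every single-symbol probe set, an alternative chosen after seeing the data, gave 17 members. Leaving out single arrays, Rsad2 ran between -0.77 and 0.22, turning above 0 without the tamoxifen sham array (0.22) and without replicate 1 of tamoxifen overload (0.02). Oas3 ran between -0.15 and 0.95, with -0.15 when vehicle overload replicate 2 was dropped. All 17 calls were lost without the trend. Apart from that, Oasl2, Ifitm3 and Ifi35 kept their call in every alternative run. Averaging over all probe sets of a gene, Dhx58 (0.82) and Xaf1 (0.46) lost their call. Of the pathway genes named, Il18, Ifnar1, Ifi204, Ikbke, Adar and Ptpn11 lost their call after quantile normalization, and Ifnar1, Ifi204, Ikbke, Samhd1 and Adar after centring.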

Other observations

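A second probe set of Xaf1 split the arrays in a way that no group does. Its signals were 47.0, 1219 and 1220.4 on the tamoxifen overload arrays and 876 and 68.8 on the vehicle overload arrays, against 331 on the tamoxifen sham array and 75.8 on the vehicle sham array. The first probe set of Xaf1 had between 689 and 897 on the 5 overload arrays, so the arrays that are low in the second are not low in the first. The overload difference of the second was -0.20 (limma, adjusted p = 0.931).

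The dimmer probe sets of Stat2, Zbp1 and Parp14 passed the adjusted threshold in limma for overload against sham, where the brighter ones used for these genes did not. Sham values of the dimmer ones lay below background, on both arrays for Zbp1 and Parp14 and on the vehicle sham array for Stat2, so the sizes cannot be set against those of the brighter ones.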
